A study of Rattus norvegicus with 9 samples.

Results

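Flavin monooxygenases were followed through 7 probe sets, 1 for Fmo1, 3 for Fmo2, 2 for Fmo4 and 1 for Fmo5, out of 31042 probe sets on the array. They are the probe sets whose only gene symbol in the platform annotation was one of these 4 names. The family was chosen by the Fmo1 signal in these same arrays, which was low in model livers and near the control level in drug livers, so the Fmo1 values below describe that choice and carry no test. The arrays held liver RNA of 9 Wistar rats labelled male and weighing 180 to 220 g. They came from 36 rats divided at random into a drug, a model and a control group of 12 rats, with 3 rats of each group arrayed. The drug group is tied to a compound named 7-P in the title of the study. What was done to the model rats, whether the drug rats received it too, what the controls received, and age, dose and duration are not stated in the labels. The replicates are separate rats, so p-values measure the spread between rats. Probe sequences were not used here, so cross-hybridization between the related Fmo transcripts was not checked.

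Flavin monooxygenases are membrane proteins of the endoplasmic reticulum that carry a bound FAD. They take electrons from NADPH, hold an activated oxygen on the flavin and pass it to soft nucleophiles, mostly the nitrogen or sulfur of amines, sulfides and drugs. Unlike the cytochromes P450 they need no separate reductase. Fmo1 is a main form of rat liver and kidney, and in mice its enzyme also oxidizes hypotaurine to taurine. Fmo2 is best known from the lung of many mammals, Fmo4 is a form of low abundance, and the human FMO5 enzyme inserts oxygen next to ketones and has little activity on the usual amine substrates.

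In the rat gene table of the GRCr8 assembly, Fmo4, Fmo1 and Fmo2 follow each other in this order on chromosome 13, and Fmo5 lies apart on chromosome 2. Fmo1 stood apart in the model livers, while Fmo5 did not and Fmo2 was too dim to tell. For Fmo4 no complete sequence window was available. The windows before the start of Fmo1 and of its neighbour Fmo2, and that of Fmo5, are shown. They are RefSeq sequences of GRCr8 and hold the 250 bases before each annotated gene start, at chr13:77747667-77747916 (minus strand) for Fmo1, chr13:77777535-77777784 (minus strand) for Fmo2 and chr2:187910714-187910963 (plus strand) for Fmo5. Capitals mark matches, on either strand, to 7 short motifs that were searched.
Fmo1: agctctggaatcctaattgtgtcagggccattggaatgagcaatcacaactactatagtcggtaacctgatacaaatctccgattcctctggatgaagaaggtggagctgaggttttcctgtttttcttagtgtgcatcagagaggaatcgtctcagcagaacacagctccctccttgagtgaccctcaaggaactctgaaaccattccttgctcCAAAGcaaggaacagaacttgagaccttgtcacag
Fmo2: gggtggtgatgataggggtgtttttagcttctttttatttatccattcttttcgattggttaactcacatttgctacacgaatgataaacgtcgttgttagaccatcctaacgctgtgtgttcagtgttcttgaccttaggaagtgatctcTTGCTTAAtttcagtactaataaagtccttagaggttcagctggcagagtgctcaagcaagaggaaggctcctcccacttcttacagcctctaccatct
Fmo5: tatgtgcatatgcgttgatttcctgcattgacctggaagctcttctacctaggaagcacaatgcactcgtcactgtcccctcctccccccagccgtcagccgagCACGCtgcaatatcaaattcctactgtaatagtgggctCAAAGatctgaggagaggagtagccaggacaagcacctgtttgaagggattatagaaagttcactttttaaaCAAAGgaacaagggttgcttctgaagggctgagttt
The motifs were GTTAAT for HNF1, CAAAG for HNF4, CCATNTT for YY1, GCGTG for AHR, TGACNNNGC for NRF2, TTGCNNAA for C/EBP and TGTTTAC for FOXA. In the Fmo1 window the 1 match was CAAAG, starting 35 bases before the gene start. The Fmo2 window held 1 match to TTGCNNAA, and the Fmo5 window 2 matches to CAAAG and 1 to GCGTG on the other strand. CAAAG occurs in 48.1% of the 27456 windows of this length, GCGTG in 26.9% and TTGCNNAA in 9.29%. The letters of the other motifs, present in 3.29% to 13.7% of windows, are not in these 3 windows. A match describes letters and is not a shown binding site.

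The array data carry features that touch every group comparison. The 2% trimmed mean signal ran from 33.6 to 81.1 across arrays, and signals were put on 1 scale by quantile normalization of their log2 values. The ratio of the 3' to the 5' signal of Gapdh, which rises as RNA is degraded, was 1.31 to 9.20 in drug, 4.09 to 12.7 in model and 1.52 to 3.14 in control arrays, so that all 3 model ratios exceeded all 3 control ratios. Xist, the RNA that coats the inactive X chromosome of females, had a log2 signal of 3.05 in drug 3 and 2.65 in control 2, and of 8.06 to 10.89 in the other arrays. The Y-linked Eif2s3y was at 7.17 in drug 3 and 6.99 in control 2 and at most 2.53 elsewhere, and the male-specific steroid hydroxylase Cyp2c11 at 12.11 and 11.27 against 2.87 to 5.22. No model array shared this pattern, while the labels call all 9 rats male.

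The liver identity of the samples was clear from Alb, the albumin gene, whose log2 signal lay between 12.72 and 12.95 in all 9 arrays. All 7 hepatocyte markers measured passed the filter on dim probe sets, with a summed normalized signal of 25600 to 27100 in drug, 24100 to 27700 in model and 27700 to 28900 in control livers. The 6 macrophage markers summed to 994 to 1330, 1060 to 1930 and 860 to 1200 in the same order of groups, and the 4 neutrophil markers to 133 to 1460, 433 to 2070 and 114 to 325. The 5 markers of sinusoidal endothelium summed to 445 to 513 in drug, 689 to 1020 in model and 595 to 667 in control livers. The sums overlapped between all groups for the stellate cell (6 of 6 markers past the filter), bile duct (3 of 4), kidney tubule (2 of 5) and lung (1 of 5) lists. No marker was listed at 0. The part of these cells in the Fmo signals was not tested, and in whole liver fewer cells of a type and less RNA per cell cannot be told apart.

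Fmo1 showed the widest separation of the family. The deposited Fmo1 signals (probe set 1387053_at) were 489, 247 and 288 in drug 1, 2 and 3, and 32.2, 33.1 and 24.6 in model 1, 2 and 3, against 208, 436 and 538 in control 1, 2 and 3. Every model signal was thus lower than every drug and control signal before any normalization. On the log2 scale after normalization Fmo1 was at 8.26, 8.49 and 8.74 in the drug livers, at 5.03, 5.35 and 4.69 in the model livers and at 6.89, 8.99 and 8.45 in the control livers. The drug and control ranges overlapped, and control 1 lay below all other arrays outside the model group.

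Put as a rank within each array, the Fmo1 signal stood at or above 95.3%, 96% and 96.6% of all probe sets in the drug livers. In the model livers it stood at or above 69.5%, 73.4% and 65% of them, and in the control livers at or above 88.7%, 97.2% and 95.9%. The transcript therefore remained well above the filter in the model livers, whose lowest log2 value of 4.69 compares with a filter of 2.82.

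Fmo1 averaged 8.50 ± 0.24 in drug livers and 5.03 ± 0.33 in model livers (log2, SD, n = 3 each), a difference of 3.47 (SE 0.465, 95% interval 2.43 to 4.51), or 11.1-fold. Model livers stood at 5.03 ± 0.33 and control livers at 8.11 ± 1.09 (SD, n = 3 each), a difference of -3.09 (SE 0.465, 95% interval -4.12 to -2.05), with the control level 8.5-fold above the model level. These comparisons share the model arrays, so the 2 differences are not independent. Drug livers exceeded control livers by 0.38 (SE 0.465, 95% interval -0.65 to 1.42), and this small difference had no steady direction. It was -0.22 without control 1, 0.81 without control 2 and -0.16 with unnormalized signals. The control arrays spread over 2.1 log2 units, the drug arrays over 0.48 and the model arrays over 0.66.

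**Figure D1:**
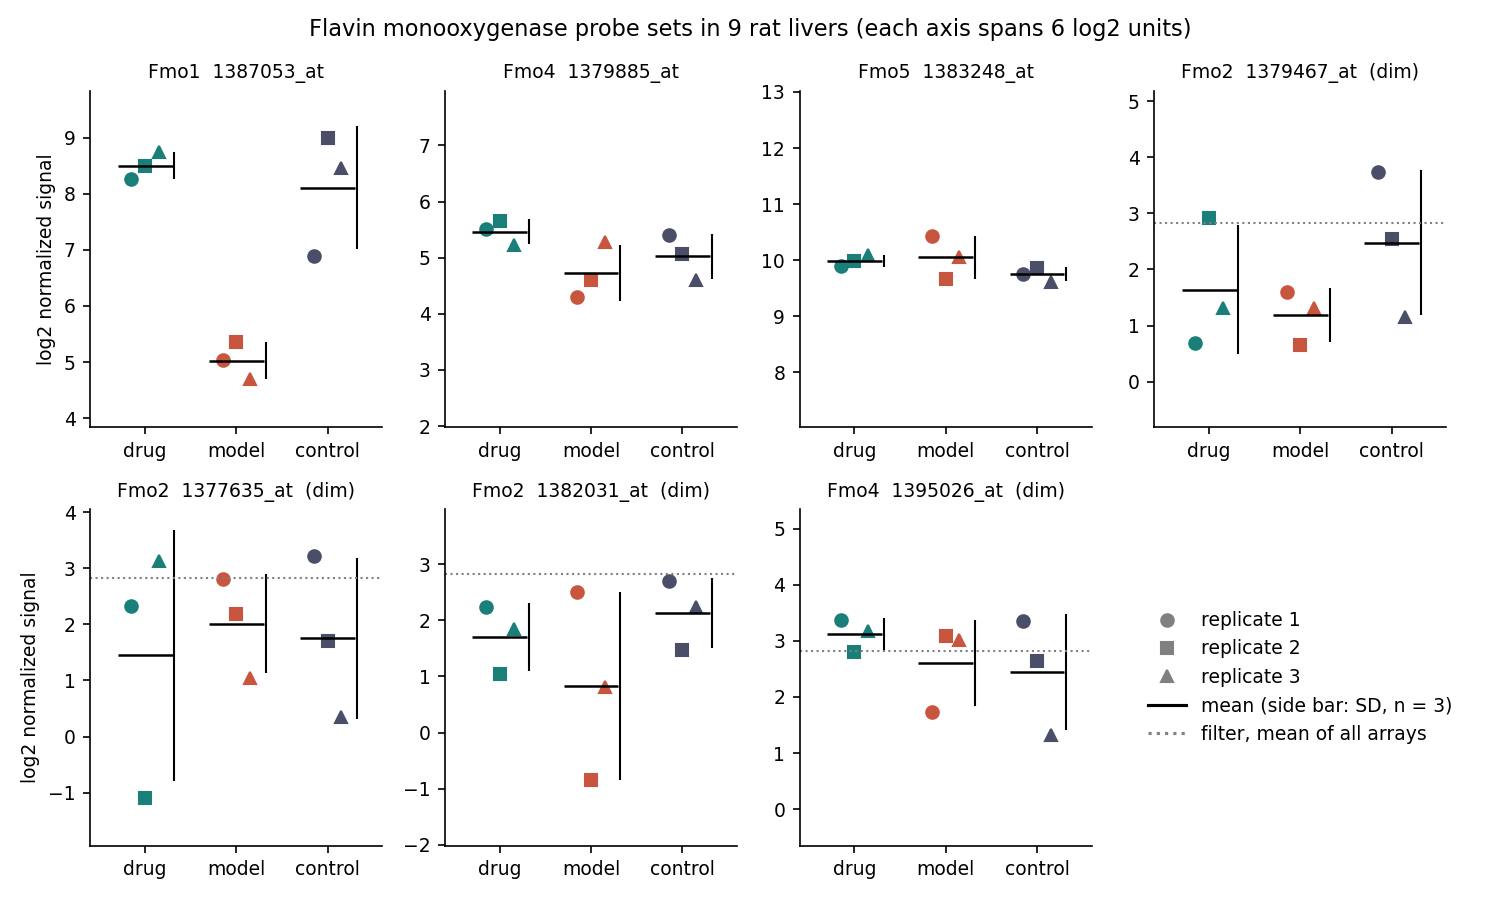
The log2 normalized signal (vertical axis, 6 log2 units in each panel) of the 7 probe sets is plotted for each array of the drug, model and control groups, with the group mean as a line and the SD as a side bar (n = 3). The 3 model arrays of Fmo1 lie between 4.69 and 5.35, below all drug and control arrays, while the groups of the dim Fmo2 and Fmo4 probe sets overlap and some arrays fall on both sides of the dotted filter line at 2.82.

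Separation of this kind has a background on this array. Of the 18625 probe sets tested, 1.23% (230) had every model array below all drug and control arrays, and 10.9% had every model array below every control array. Drug arrays lay above all model arrays in 3.35% of probe sets. Fmo1 had a gap of 1.54 log2 units between its lowest drug or control array and its highest model array, and 0 of the 230 had a wider one. As Fmo1 was chosen for this pattern, that rank describes it and tests nothing.

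Of the 7 probe sets, 3 passed the filter (Fmo1, Fmo4 1379885_at and Fmo5), and 0% of the 18625 tested probe sets passed a limma adjusted p of 0.05 in any of the 3 comparisons, Fmo1 included. The unadjusted p of limma lay under 0.05 for 610 probe sets in drug against model (3.28%), for 2245 in model against control (12.1%) and for 1345 in drug against control (7.22%). Fmo1 passed the adjusted threshold under 4 of 22 alternatives, in model against control or drug against model, which the closing part lists. As Fmo1 was chosen for its pattern in these arrays, those calls are no test of it and lend it no support.

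The Fmo1 difference was set beside RNA quality and the sex-linked transcripts. Drug 2 and drug 3, with Gapdh ratios of 9.2 and 8.71, had Fmo1 at 8.49 and 8.74, while model 3, with a ratio of 9.77, had it at 4.69. Model 1, with the lowest ratio of its group at 4.09, had Fmo1 at 5.03. With a term for the log2 Gapdh ratio the difference was 3.68 in drug against model, -3.56 in model against control and 0.12 in drug against control. Drug 3 and control 2, the arrays low in Xist, had the highest Fmo1 value of their groups. Without both arrays the differences were 3.34 in drug against model, -2.64 in model against control and 0.7 in drug against control. The model ratios all exceeded the control ratios, so the Gapdh term cannot fully separate RNA quality from group in model against control. The part of RNA quality or of the Xist pattern in the Fmo1 difference was not tested.

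**Figure D2:**
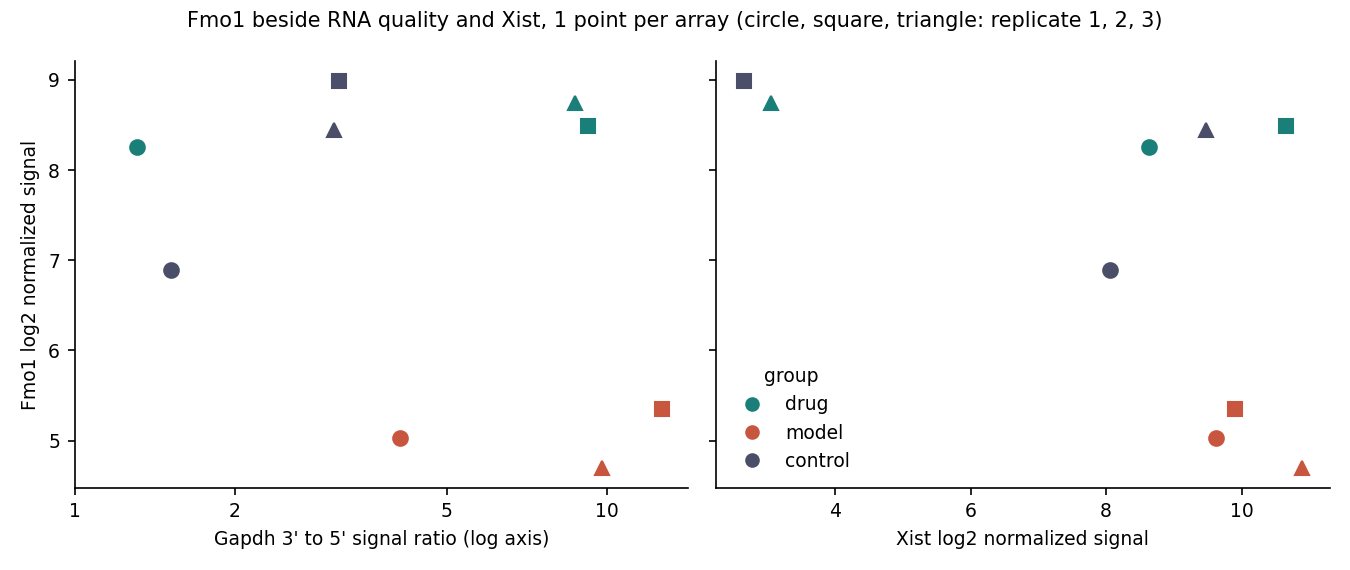
Fmo1 log2 normalized signal (vertical axis) is plotted against the Gapdh 3' to 5' signal ratio on a log axis (left) and the Xist log2 normalized signal (right), 1 point per array, coloured by group. The model arrays stay at 4.69 to 5.35 over Gapdh ratios of 4.09 to 12.7, and drug arrays with ratios of 8.71 and 9.2 lie above 8.

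Fmo4, the gene next to Fmo1, had 1 probe set past the filter (1379885_at). Its log2 signal was 5.52, 5.66 and 5.22 in the drug livers, 4.30, 4.60 and 5.28 in the model livers and 5.41, 5.06 and 4.60 in the control livers. Drug 3 lay below model 3, so the groups overlapped in every comparison. Fmo4 averaged 5.47 ± 0.22 in drug and 4.72 ± 0.5 in model livers (SD, n = 3 each), a difference of 0.74 (SE 0.333, limma unadjusted p = 0.0498, adjusted p = 0.998). Model livers, at 4.72 ± 0.5, differed from control livers, at 5.03 ± 0.41 (SD, n = 3 each), by -0.3 (SE 0.333, 95% interval -1.04 to 0.44, limma adjusted p = 0.697). Drug against control gave 0.44 (95% interval -0.3 to 1.19, limma adjusted p = 0.748). Both intervals against the control group include 0 and are wider than their estimates.

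The other Fmo4 probe set (1395026_at) was dim, with a mean over all arrays under the filter. Its group means were 3.12 ± 0.29 in drug, 2.61 ± 0.76 in model and 2.44 ± 1.04 in control livers (log2, SD, n = 3 each). The drug against model difference of 0.51 had the sign of the brighter probe set, while model against control, at 0.17, had the opposite sign (SE 0.714 for both), and that value ran from -0.4 to 0.63 over the alternatives. A probe set this close to the filter cannot settle which of them is nearer to the transcript.

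Fmo5 was bright and nearly level across the groups. Its deposited signals (1383248_at) were 1610, 642 and 721 in drug, 1330, 575 and 745 in model and 1810, 812 and 1250 in control livers. After normalization these were 9.89, 9.98 and 10.09 in drug, 10.43, 9.67 and 10.05 in model and 9.75, 9.87 and 9.62 in control livers (log2). The largest spread was inside the model group, and the signal stood at or above 98.3% to 99.1% of all probe sets in the 9 arrays.

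Fmo5 averaged 9.99 ± 0.1 in drug, 10.05 ± 0.38 in model and 9.74 ± 0.12 in control livers (log2, SD, n = 3 each). Drug against model gave -0.06 (95% interval -0.56 to 0.43, limma adjusted p = 0.998) and model against control 0.31 (95% interval -0.19 to 0.8, limma adjusted p = 0.555). Drug against control gave 0.24 (95% interval -0.25 to 0.74, limma adjusted p = 0.781). Every drug array lay above every control array for Fmo5, as in 6.05% of all tested probe sets. The sign of these differences rests on the scaling, since unnormalized signals gave 0.13, -0.56 and -0.43 in the same order of comparisons. The intervals of the 3 comparisons reach from -0.56 to 0.8 log2 units, short of the size seen for Fmo1.

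**Figure D3:**
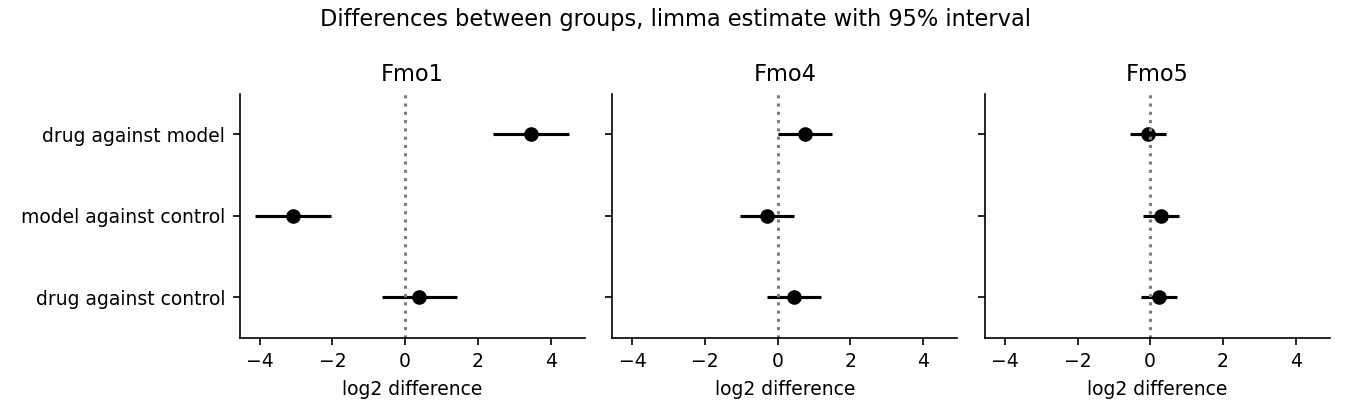
The limma log2 difference (horizontal axis) with its 95% interval is drawn for drug against model, model against control and drug against control, for the Fmo1, Fmo4 and Fmo5 probe sets past the filter. The Fmo1 points lie at 3.47, -3.09 and 0.38, while the Fmo4 and Fmo5 points lie between -0.3 and 0.74.

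Fmo2 was dim on all 3 of its probe sets, whose means over the 9 arrays lay under the filter. The log2 values of 1379467_at ran from 0.69 to 2.91 in drug, 0.65 to 1.59 in model and 1.16 to 3.73 in control livers. Those of 1377635_at ran from -1.1 to 3.12, from 1.05 to 2.8 and from 0.34 to 3.21, and those of 1382031_at from 1.05 to 2.24, from -0.85 to 2.5 and from 1.47 to 2.7, in the same order of groups. All groups overlapped on every Fmo2 probe set. Control 1 held the highest value on all 3 of them, and in deposited signal 20.4, 14.1 and 9.85 there compare with at most 7.57 in any other array.

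The Fmo2 differences had standard errors of 0.911 to 1.18 and did not agree between probe sets. Drug against model was 0.45, -0.57 and 0.89 on 1379467_at, 1377635_at and 1382031_at, and model against control was -1.29, 0.26 and -1.31. With the Gapdh term the last of these was -0.18. The 95% intervals of drug against model, the widest from -3.15 to 2.01, cover changes in either direction.

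The Fmo probe sets shared little of the Fmo1 pattern. Over the 9 arrays the Pearson correlation of log2 signal with Fmo1 was 0.42 for Fmo4 1379885_at, 0.02 for Fmo4 1395026_at and -0.31 for Fmo5. For the Fmo2 probe sets it was 0.22, -0.23 and 0.33. These values describe 9 arrays in 3 groups that share 1 normalization.

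Genes flanking the Fmo genes were read for comparison. Next to the chromosome 13 run, the vesicle SNARE gene Vamp4 gave 0.05 in drug against model and -0.44 in model against control (SE 0.293, limma adjusted p = 0.998 and 0.53). Myoc, the myocilin gene, was under the filter and gave -0.24 and 0.77 (SE 0.813). Prrx1, a homeobox gene of mesenchymal cells, was also under the filter, at 1.67 and -3.52 (SE 1), with the model arrays below the control arrays and its drug arrays overlapping both groups.

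Around Fmo5, the chromatin remodeller gene Chd1l, whose annotated span overlaps that of Fmo5, gave 0.4 in drug against model and 0.23 in model against control (SE 0.343, limma adjusted p = 0.998 and 0.777). Pde4dip gave -0.13 and 0.39 (SE 0.294, limma adjusted p = 0.998 and 0.567). Prkab2, a regulatory subunit gene of AMP-activated kinase, was under the filter, and its drug arrays all lay below its model arrays (-3.25, SE 0.808), with -0.82 in model against control. Among probe sets past the filter 4.7% had drug arrays below all model arrays, and the share among dim ones was not computed. The Prkab2 signal is near background, so the size of its difference is not exact.

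Gene lists gave the setting of Fmo1 in drug metabolism, beside a median over all 10432 tested genes of -0.03 in drug against model and 0.01 in model against control. In each list 0 genes passed the limma adjusted threshold in either direction, and the counts at an unadjusted p under 0.05 are given with each. In the same order of comparisons, 3.28% and 12.1% of all tested probe sets reached that limma unadjusted level. Of all tested genes, 52.9% and 48.9% lay below 0. Of 6 genes listed for microsomal electron transfer, P450 partners among them, the medians were 0.03 and -0.21, with 0 and 1 at an unadjusted p under 0.05. Cyb5r3, the cytochrome b5 reductase, was at -0.67 in model against control (limma adjusted p = 0.412), and Pgrmc1, a heme-binding partner of P450 enzymes, at 0.35 (0.427, and -0.37 without normalization). The 7 measured genes of NADPH supply, the cofactor of the flavin monooxygenases, had medians of 0.08 and -0.17, with 1 and 0 at that level. Among them Pgd, of the pentose phosphate pathway, was at -1.0 in model against control (limma adjusted p = 0.45) and the dehydrogenase Idh1 at 0.27 (0.519, and -0.38 without normalization). Over the alternatives the drug against model medians turned sign in both lists, with ranges of -0.15 to 0.15 for electron transfer and -0.29 to 0.27 for NADPH supply. The model against control medians stayed below 0, at -0.9 to -0.07 and -0.91 to -0.02, with the lowest values from unnormalized signals.

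The 6 genes of taurine synthesis and use had medians of -0.09 in drug against model and 0.23 in model against control, both with 0 genes at an unadjusted p under 0.05. Vnn1, which releases cysteamine from pantetheine, was at 0.58 in model against control (limma adjusted p = 0.633), and the taurine transporter Slc6a6 at 0.47 (0.705, and -0.44 with the Gapdh term). Both medians of the taurine list turned sign over the alternatives, with ranges of -0.43 to 0.17 and -0.3 to 0.45.

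The list of other enzymes that oxidize amines, aldehydes and sulfur held genes with the direction of Fmo1. Of 9 measured, 7 lay above 0 in drug against model and 6 below 0 in model against control, with medians of 0.34 and -0.59, and 2 and 4 at an unadjusted p under 0.05. Without overlap, 2 were higher in drug than in model livers (background 3.35%) and 5 lower in model than in control livers (background 10.9%). In drug against control, unlike Fmo1, 6 of the 9 lay below 0 (52.2% of all tested genes), with a median of -0.38 (-0.87 to 0.03 over the alternatives). Maoa and Suox were at 0.2 and 0.22 in drug against model, and at -1.03 and -0.93 in drug against control (SE 0.468 and 0.493). Aox1 was above the control level in model and drug livers, by 1.23 and 1.57 (SE 0.626). Ethe1, the mitochondrial persulfide dioxygenase, averaged 7.97 in drug, 7.03 in model and 8.42 in control livers (log2). Its differences were 0.94 and -1.39 (SE 0.281, limma adjusted p = 0.998 and 0.373). Tst, the thiosulfate sulfurtransferase rhodanese, averaged 10 in drug, 9.49 in model and 10.08 in control livers, with differences of 0.51 and -0.59 (SE 0.197, limma adjusted p = 0.998 and 0.384). With the term for the Gapdh ratio, which was higher in all model than in all control arrays, the list medians were 0.21 and -0.25. Other scalings moved the model against control median the other way, to -1.46 without normalization, -1.13 with median centring and -0.9 with the trimmed mean. The drug against model median turned sign under some alternatives, with a range of -0.1 to 0.66.

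Cytochromes P450, the other microsomal monooxygenases, showed no common shift of the size of Fmo1. Of 20 measured drug-metabolizing forms, 14 lay above 0 in drug against model and 13 below 0 in model against control, with medians of 0.35 and -0.22, and 3 and 1 at an unadjusted p under 0.05. These counts include the sex-biased Cyp2c11, Cyp2a2, Cyp2c13 and Cyp3a2, at 2.41, 1.86, 1.43 and 2.75 in drug against model. In model against control they were at -1.99, -2.35, -1.19 and -1.91 (SE 2.34 to 2.75). Cyp2c11 was high only in drug 3 and control 2. Cyp2c12, counted too, was at -1.43 and 2.29 (SE 1.55). The model against control median turned sign under some alternatives (-0.96 to 0.14). Cyp2t1 averaged 6.96 in drug, 5.96 in model and 6.9 in control livers (log2), with no overlap between model livers and either group. Its differences were 0.99 in drug against model and -0.93 in model against control (SE 0.293, limma adjusted p = 0.998 and 0.384). Cyp2e1, the ethanol-inducible form, was at 0.46 and -0.45 (SE 0.24, limma adjusted p = 0.998 and 0.452). Cyp2c12, a female-specific form, was at 8.19 in drug 3 and 5.82 in control 2, the arrays low in Xist, and between 11.86 and 12.37 in the other 7.

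Transcription factors that have been tied to Fmo genes or liver drug metabolism were measured for 12 of 13 listed genes, 11 of them past the filter. Their medians were 0.32 in drug against model and -0.12 in model against control, with 2 and 1 at an unadjusted p under 0.05, and the model against control median turned sign over the alternatives (-0.61 to 0.06). Hnf4a, a nuclear receptor that controls many hepatocyte genes, was at -0.37 and 0.46 (SE 0.269, limma adjusted p = 0.998 and 0.482). The sign in model against control turned with the setting, to -0.34 for unnormalized signals, -0.01 after median centring and -0.05 once the Gapdh ratio entered the fit. Stat5b, which carries growth hormone signals to sex-biased liver genes, was at 0.32 and -1.12 (SE 0.418, limma adjusted p = 0.998 and 0.395). The sex-linked and sex-biased list, 9 genes past the filter, had medians of 1.86 and -1.19, with 1 and 0 at that level. These medians turned sign under some alternatives, with ranges of -0.47 to 3.61 and -3.4 to 0.83. Xist itself was at -2.7 and 3.41 (SE 1.97, limma adjusted p = 0.998 and 0.476). The Y-linked Uty, past the filter, was at -0.32 and 0.11 (SE 0.301, limma adjusted p = 0.998 and 0.892). The list mixes male-specific genes such as Cyp2c11 with female-specific ones such as Cyp2c12, so its medians have no single direction.

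The genes most like Fmo1 over the 9 arrays were found among 13933 tested probe sets with a single symbol. The 6 highest Pearson correlations belonged to Mtg1 (0.94), a mitochondrial ribosome GTPase, Las1l (0.93), a factor of ribosomal RNA processing, Mpp3 (0.92), a membrane scaffold, Nuf2 (0.92), a kinetochore component, Fbxo38 (0.91), an F-box protein, and Farp1 (0.91), an exchange factor for small GTPases. With each array left out in turn these stayed between 0.87 and 0.96. The 4 lowest were Top2b (-0.95), a DNA topoisomerase, Fnip1 (-0.95), a folliculin partner, Greb1l (-0.95) and the protocadherin Pcdh18 (-0.93), with a range of -0.97 to -0.92.

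None of these 10 genes moved as far as Fmo1. Mtg1 averaged 6.98 ± 0.06 in drug, 6.53 ± 0.12 in model and 6.92 ± 0.07 in control livers (log2, SD, n = 3 each). Farp1 averaged 4.97 ± 0.26 in drug, 3.46 ± 0.66 in model and 4.84 ± 0.28 in control livers, and Pcdh18 5.73 ± 0.59, 7.52 ± 0.24 and 5.94 ± 0.85 in the same groups. Within groups, the correlation with Fmo1 of deviations from the group means was 0.43 for Mtg1, 0.19 for Las1l and 0.47 for Farp1, and higher for Nuf2 (0.87) and Mpp3 (0.83). The choice of the highest and lowest of 13933 values over 9 arrays makes such correlations large, and they are given as a description.

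**Figure D4:**
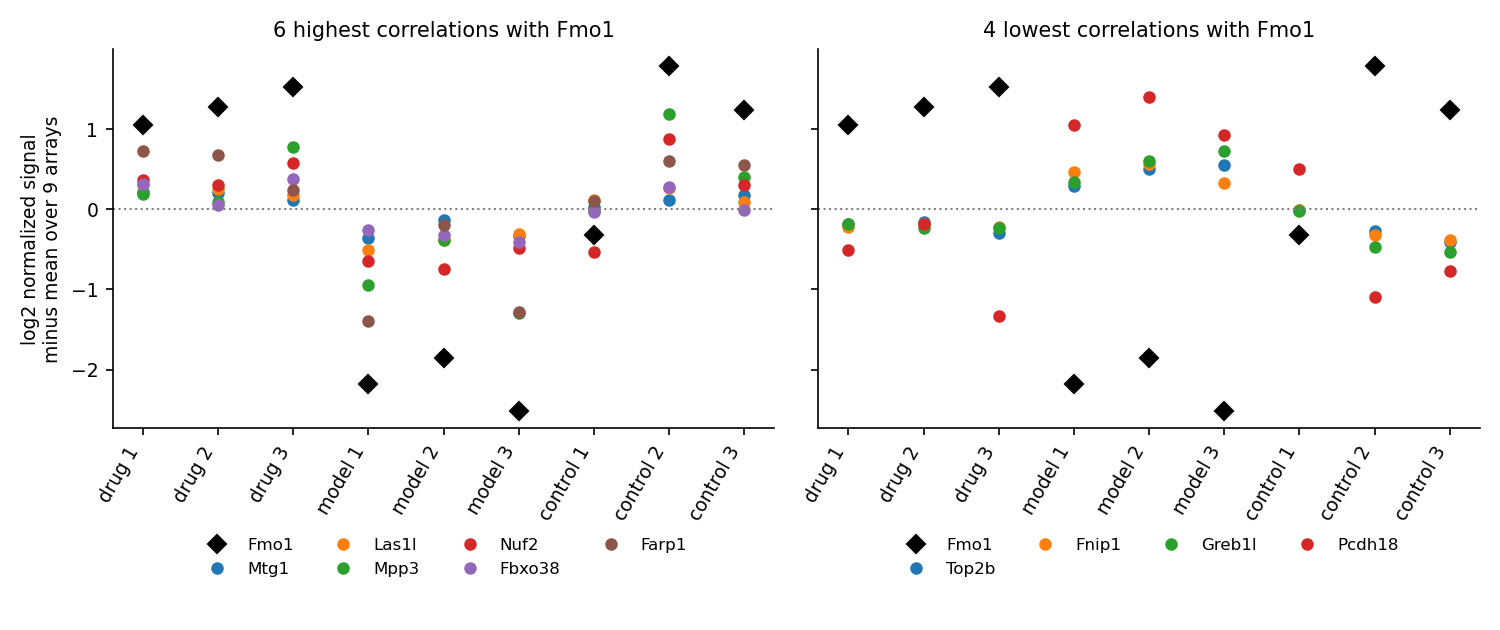
The log2 normalized signal minus each gene's own mean over the 9 arrays (vertical axis) is plotted by array for Fmo1 (black diamonds) with the 6 genes of highest correlation (left) and the 4 of lowest correlation (right). Fmo1 lies lowest of all genes in the 3 model arrays on the left, and the 4 genes on the right lie above 0 there.

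Across the 22 alternative settings the Fmo1 difference kept its direction in drug against model (3.19 to 3.68) and in model against control (-3.66 to -2.62). The ends of the model against control range came from leaving out control 1 (-3.66) and control 2 (-2.62), and unnormalized signals gave -3.62. Drug against control ranged from -0.22 to 0.81.

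**Figure D5:**
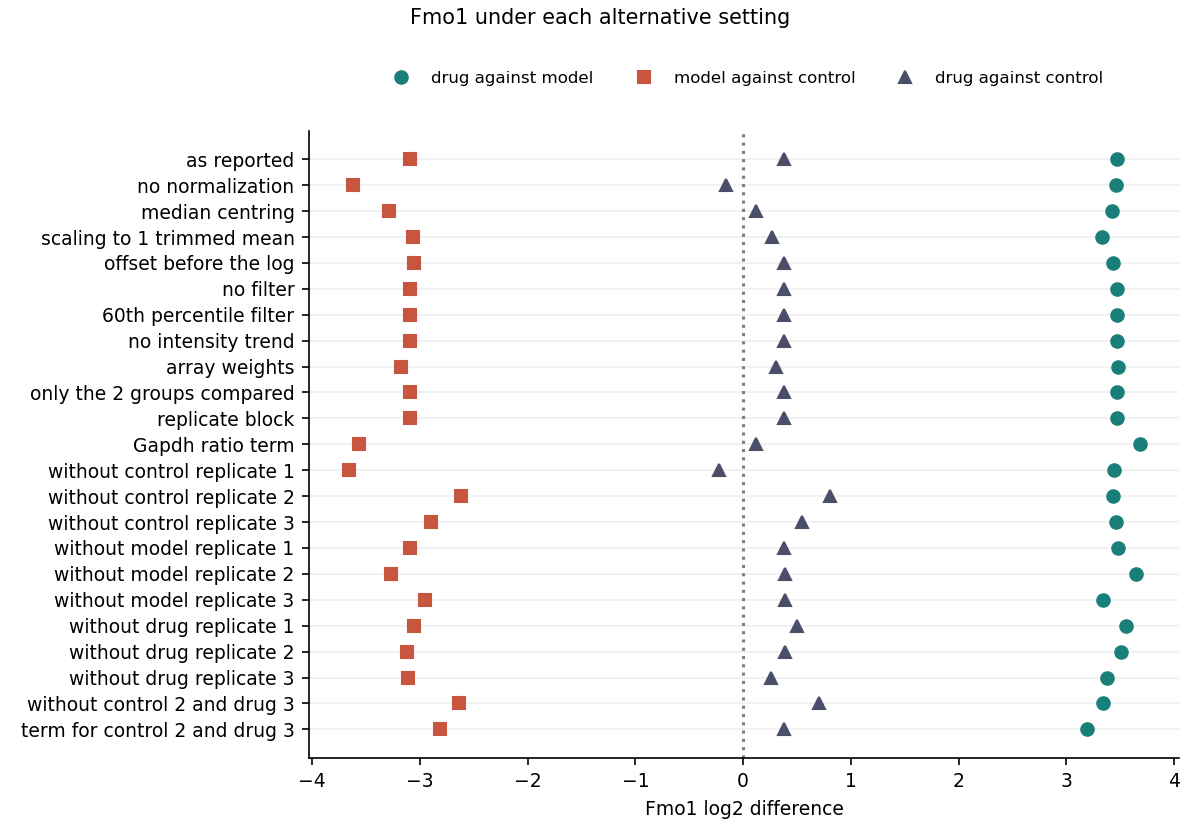
The Fmo1 log2 difference (horizontal axis) is plotted for drug against model, model against control and drug against control, as reported and under each of 22 alternatives (rows). The drug against model points lie between 3.19 and 3.68, the model against control points between -3.66 and -2.62, and the drug against control points on both sides of 0.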

How the data were processed

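Liver RNA of 9 rats was measured on a one-colour Affymetrix rat array. Per the labels' protocols, total RNA was labelled with biotin by the array maker's standard procedure. The deposited values are linear signal intensities, 1 for each probe set and array, from GCOS 1.2, per the submitters' processing notes. How GCOS was set, and whether it scaled the arrays to a target, is not stated there. The deposited intensities were on no common scale (2% trimmed means of 33.6 to 81.1), so their log2 values were quantile normalized, which removes any difference in total RNA between groups. Precision is limited by there being 3 arrays in a group.

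After removal of 57 controls, 31042 of the 31099 probe sets remained. The platform annotation gave a single symbol for 20826 of them and several for 436, and it named no gene for 9780. The 18625 probe sets whose mean log2 signal reached the 40th percentile (2.82) were tested. All 9 arrays entered 1 fit in limma 3.58.1 (R 4.3.3), with a term for each group, an intensity trend and two-sided tests, and p-values were adjusted over all 18625 probe sets by the Benjamini-Hochberg method (threshold 0.05). Probe sets under the filter were fitted with no filter. On simulated data with 50 changed probe sets of each size in model against control, the fit recovered 74% of changes of 3 log2 units and 8% of changes of 1 log2 unit. Of 116 probe sets called there 5 were unchanged, and of 134 called in drug against model 13 were unchanged. The simulated noise was independent between probe sets and held no shared differences in RNA quality or scale, so these shares need not hold for the real arrays.

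The members, the gene lists and the processing were chosen with earlier results of these data known, and Fmo1 for its pattern across these groups. Where a list gene had several probe sets, the brightest on average stood for it. Genes were named by a rule: the list genes past the threshold, or, where none passed, the 2 genes of lowest unadjusted p in model against control, the 6 and 4 genes with the highest and lowest correlation with Fmo1, and the neighbours of the Fmo genes. Other genes were chosen after their values were seen.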

Additional observations from a re-analysis of the deposited data

How the results depend on the processing

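Against 0 probe sets past the adjusted threshold as reported, model against control gave 1 without normalization (Fmo1) and 4 with array weights (Fmo1, Siglec5, Slfn9 and Igsf6). Leaving out each array in turn gave 0 to 1 there, with Fmo1 called without control 1. The call without model 1 was a probe set with no gene name (-3.77). Without model 2 it was a probe set annotated to Mt1f, Ttr and Mt1 (2.74). Drug against model gave 1 with only the compared groups in the fit (Fmo1), and 0 to 1 with each array left out, again Fmo1 without control 1. The other settings of these comparisons, and all settings of drug against control, gave 0, apart from the replicate block. The unadjusted counts ranged from 1157 to 4031 in model against control, 186 to 1788 in drug against model and 456 to 3856 in drug against control. As Fmo1 was chosen for its pattern, its calls describe how near it lies to the threshold. The samples share only a replicate number: deviations of same-numbered arrays correlated at -0.01 to 0.48, and 3 of 9 arrays correlated best with their own number in both other groups. With the replicate block 3 probe sets passed in model against control, Siglec5, Thumpd3-as1 and Scd, and the Fmo1 difference stayed at -3.09.

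The brighter Fmo4 probe set kept its direction in every setting run, while the dim one ran from -0.4 to 0.63 in model against control. Fmo5 turned to -0.56, 0.13 and -0.43 in model against control, drug against model and drug against control without normalization, to -0.23, 0.09 and -0.14 with median centring, to 0 and 0.01 in model against control and drug against model with the trimmed mean, and to 0.15 in drug against model with array weights. With each array left out it ran from -0.25 to 0.13 in drug against model. Unnormalized signals moved the median of all genes to -0.43, 0.06 and -0.39 in these comparisons. In model against control, Pgrmc1, Idh1, Slc6a6 and Hnf4a turned to -0.37, -0.38, -0.06 and -0.34 without normalization, Pgrmc1, Idh1 and Hnf4a to -0.04, -0.05 and -0.01 with median centring, and Slc6a6 and Hnf4a to -0.44 and -0.05 with the Gapdh term. Slc6a6 ran from -0.13 to 1.11 with each array left out. Cyp2c12 turned to 0.24 in drug against model with a term for drug 3 and control 2. Why these settings turned the signs was not tested. Dim Fmo2 signals limit what can be said of that gene.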

Other observations

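Among the microsomal monooxygenases, Cyp1a1, the classical target gene of the aryl hydrocarbon receptor, ran opposite to Fmo1. It averaged 2.2 in drug, 6.07 in model and 4.24 in control livers (log2), with differences of -3.87 in drug against model and 1.84 in model against control (SE 0.99, limma adjusted p = 0.998 and 0.455). Every drug array lay below every model array, as in 4.7% of tested probe sets, and the drug level was near background, so the size is not exact. Cyp1a2, another target of that receptor, had the same signs at -0.5 and 0.28 (SE 0.178, limma adjusted p = 0.998 and 0.515). Ahr, the gene of the receptor itself, had the opposite sign in each of these comparisons and passed the limma adjusted threshold in neither. Every drug array of Ahr lay above every model array, while its model and control arrays overlapped. The activity of the receptor was not tested. Cyp1a1, Cyp1a2 and Ahr were chosen for this paragraph after their values were seen.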
